A study of Mus musculus with 12 samples.

Results

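Ifi30 and 7 further genes of antigen presentation (Cd74, H2-Aa, H2-Ab1, H2-Eb1, Ctss, B2m and Tap1) were followed in muscle of mice carrying a mutant energy-sensing kinase subunit. The array annotation pairs 15 probe sets with exactly 1 of these 8 symbols, out of 22626 probe sets tested and 12393 genes named. The transgenic group was 6 male C57BL/6 mice of generation F5 with the R225Q mutant γ3 subunit of AMPK, the kinase that responds to low cellular energy. The comparison group was 6 wild-type male littermates of the same strain and generation. All were 17 to 18 weeks old, kept under a 12-h light-dark cycle and fasted overnight, and RNA came from the white gastrocnemius, 1 mouse per Affymetrix MOE430A array. The promoter and cell type that drive the transgene are not given in the sources used here. Prkag3, the gene of the γ3 subunit, was not analysed here, so the labels had no check against the targeted transcript.

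Ifi30 encodes GILT, the interferon-γ-inducible lysosomal thiol reductase, which breaks disulfide bonds of proteins taken up by antigen-presenting cells. The unfolded proteins are cut by lysosomal cathepsins, and the peptides are loaded onto MHC class II molecules that the invariant chain has escorted to the endocytic compartment. MHC class I molecules follow another route, in which peptides made in the cytosol are carried into the endoplasmic reticulum. In skeletal muscle the class II genes are expressed mainly by resident macrophages, dendritic cells and other non-muscle cells, whereas most cells carry some class I.

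The sequences just upstream of the members are shown because interferon and class II regulators act on such promoters. RefSeq promoters of build GRCm38.p6 matched 6 of the 8 genes: Ifi30, Ctss, H2-Aa, H2-Eb1, B2m and Tap1. H2-Ab1 and Cd74 are named only. The 250 bases before the annotated start are given 5′ to 3′ on the gene's strand for 5 of them. Capitals mark matches, on either strand, to a Y box core (ATTGG, or CCAAT when read on the opposite strand) or to an interferon-stimulated response element (searched as GAAA, any 2 bases, GAAA).
Ifi30 (chr8:70766664-70766913, minus strand): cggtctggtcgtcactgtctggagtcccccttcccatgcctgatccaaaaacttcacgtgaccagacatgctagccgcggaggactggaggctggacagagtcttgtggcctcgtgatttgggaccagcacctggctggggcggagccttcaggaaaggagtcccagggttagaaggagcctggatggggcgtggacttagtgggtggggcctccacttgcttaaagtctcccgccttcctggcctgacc
Ctss (chr3:95526536-95526785, plus strand): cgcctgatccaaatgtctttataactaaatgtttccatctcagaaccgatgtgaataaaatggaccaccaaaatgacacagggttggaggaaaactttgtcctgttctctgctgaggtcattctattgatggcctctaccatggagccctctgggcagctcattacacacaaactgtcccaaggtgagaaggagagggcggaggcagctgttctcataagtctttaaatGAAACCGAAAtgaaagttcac
H2-Aa (chr17:34287824-34288073, minus strand): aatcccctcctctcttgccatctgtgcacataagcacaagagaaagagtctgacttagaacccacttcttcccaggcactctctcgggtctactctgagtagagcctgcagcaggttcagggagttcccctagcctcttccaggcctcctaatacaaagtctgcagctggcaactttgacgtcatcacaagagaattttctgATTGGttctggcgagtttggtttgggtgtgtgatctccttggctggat
H2-Eb1 (chr17:34305617-34305866, plus strand): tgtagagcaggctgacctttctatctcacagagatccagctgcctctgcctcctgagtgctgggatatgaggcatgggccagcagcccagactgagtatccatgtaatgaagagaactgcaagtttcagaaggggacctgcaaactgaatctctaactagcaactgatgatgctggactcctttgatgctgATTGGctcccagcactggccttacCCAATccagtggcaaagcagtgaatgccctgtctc
B2m (chr2:122147437-122147686, plus strand): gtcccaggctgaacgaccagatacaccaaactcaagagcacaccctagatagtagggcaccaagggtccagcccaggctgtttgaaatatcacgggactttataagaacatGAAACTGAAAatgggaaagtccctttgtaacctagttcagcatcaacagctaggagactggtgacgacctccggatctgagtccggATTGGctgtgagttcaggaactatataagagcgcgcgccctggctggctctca

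The Y box core was present upstream of H2-Aa, H2-Eb1, B2m and Tap1, and in 33.8% of all 32851 promoters over the same 250 bases. The response element was present upstream of B2m, as GAAACTGAAA, and of Ctss, as GAAACCGAAA, and in 2.98% of all promoters. An X box pattern (in 0.609% of promoters) and a GAS pattern (TTCNNNGAA, in 7.02%) matched none of the 6. None of the marked matches overlapped a match of another pattern. The Ifi30 window held no match to any of the 4 patterns. Only exact matches to the fixed letters of each pattern were counted. A missing match therefore says only that these letters are not in that window. Near matches were not searched, so the X box result does not show that H2-Aa, H2-Eb1 or another member lacks an X box.

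The arrays were alike, with correlations of log2 intensity between 0.985 and 0.997. They were hybridized on 2 days, with 3 arrays of each genotype on each day. A smaller chip lot supplied 1 transgenic array (replicate 1) and 1 wild-type array (replicate 7). These had Gapdh 3′ minus 5′ differences of 0.185 and 0.184 on the log2 scale, against -0.0944 to -0.00174 on the other arrays. By genotype the Gapdh difference averaged -0.0108 ± 0.0963 for transgenic and -0.00156 ± 0.0983 for wild-type arrays (n = 6 each, SD; two-sided exact permutation p = 0.766). The same difference for the actin control averaged -0.166 ± 0.038 for transgenic and -0.112 ± 0.074 for wild-type arrays (exact permutation p = 0.121). All 10 fast-fibre markers of the labelled tissue lay above the median probe set level of 6.66 log2 units, and Atp2a1, the fast-fibre calcium pump, averaged 14.00 ± 0.03 in transgenic and 14.00 ± 0.02 in wild-type arrays. The median log2 fold change of these markers was -0.00018. All 8 slow and oxidative fibre markers also lay at or above the median level, so that level does not tell the fibre types apart. Mean log2 levels ran from 12.18 to 14.00 for the fast-fibre and from 6.66 to 11.55 for the slow and oxidative markers.

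Ifi30 was higher in transgenic muscle, and none of the other 7 genes passed the test in either direction. Ifi30 was selected on this difference between the genotypes, and the other 7 were chosen as its partners in antigen presentation, so the Ifi30 values are a description. The probe set 1422476_at had a lowest, median and highest log2 intensity of 7.62, 7.80 and 7.99 in transgenic muscle. The wild-type values were 6.98, 7.26 and 7.42. Every transgenic array lay above every wild-type array, with no value between 7.42 and 7.62. Transgenic arrays averaged 7.79 ± 0.13 and wild-type arrays 7.24 ± 0.16 (n = 6 of each genotype, SD). The log2 fold change was 0.55 ± 0.08 (SE). As a linear fold this was 1.46, with a 95% interval of 1.30 to 1.64. It is 1 of the 16 probe sets past a limma adjusted p of 0.05 that chose it (0.0130), where the last value inside the threshold was 0.0409 and the first outside it was 0.0511.

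Of all 22626 probe sets, 0.0707% passed that threshold. As shares of all probe sets, 0.0442% passed as higher and 0.0265% as lower in transgenic muscle. Genotypes that did not overlap were found for 0.504% of probe sets. Since Ifi30 is the reason for the choice, nothing is read from its place among these. The tissue is a mixture of cells, so more cells of a type and more RNA per cell cannot be told apart. An antisense long non-coding RNA, 6330537M06Rik (chr8:70761115-70767575, plus strand, GRCm38.p6), overlaps Ifi30 (chr8:70762773-70766663, minus strand) and had no named probe set here. Of the 3 nearest genes on each side, Rab3a was at -0.03 ± 0.06, Pik3r2 at -0.02 ± 0.05 and Mast3 at -0.09 ± 0.08 (log2 fold change, SE). These 3 measured neighbours did not pass the limma test, and Pde4c, Mpv17l2 and 2010320M18Rik were not analysed here.

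**Figure D1:**
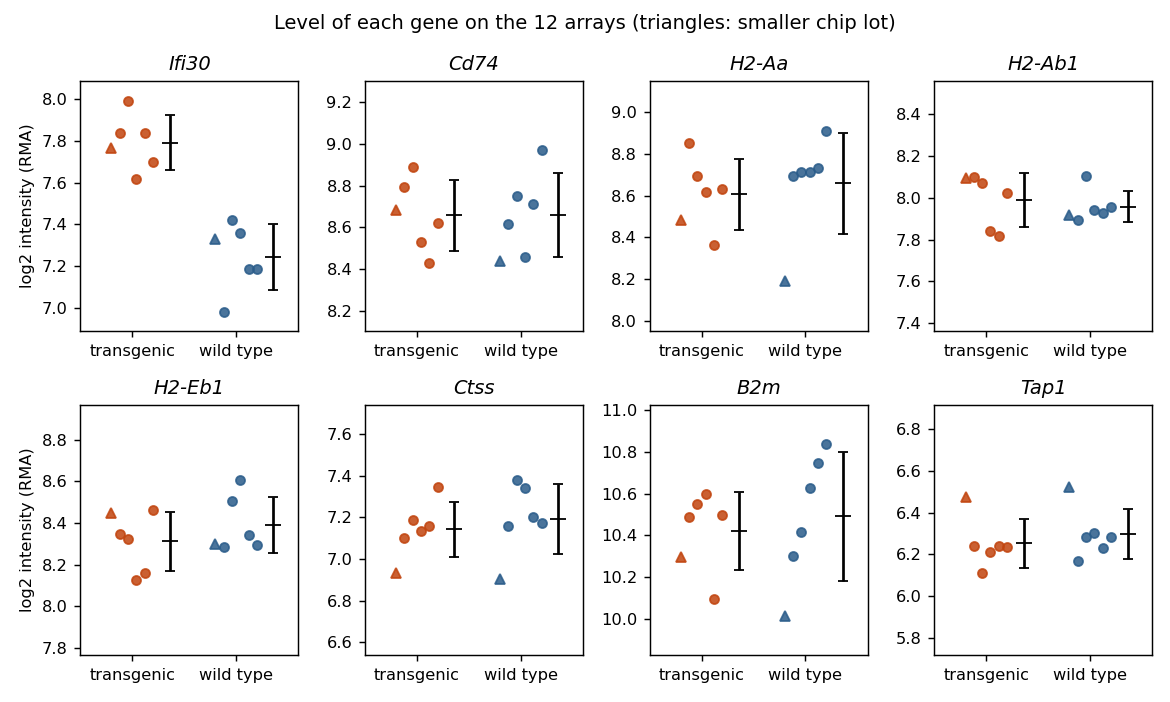
Log2 intensity (RMA) of the brightest probe set of each of the 8 genes, transgenic left and wild type right, 1 point per array, the genotype mean and SD beside the points, and triangles for the smaller chip lot. Ifi30 lies between 7.62 and 7.99 in transgenic and between 6.98 and 7.42 in wild-type muscle, and the groups of the other 7 genes overlap.

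The class II genes stayed close between genotypes. Cd74 encodes the invariant chain that escorts class II molecules. Its probe set had a lowest, median and highest log2 intensity of 8.43, 8.65 and 8.89 in transgenic muscle and 8.44, 8.66 and 8.97 in wild-type muscle. The groups covered nearly the same range, and the log2 fold change was -0.0013 ± 0.09 (SE). H2-Aa encodes the α chain of the I-A molecule, and its brightest probe set had 8.36, 8.62 and 8.85 in transgenic and 8.19, 8.71 and 8.91 in wild-type muscle. Here the wild-type values spread more widely, and the log2 fold change was -0.05 ± 0.10 (SE). The lowest wild-type array was replicate 7, of the smaller chip lot.

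H2-Ab1 encodes the β chain that pairs with that α chain. Its brightest probe set had 7.81, 8.05 and 8.10 in transgenic and 7.89, 7.94 and 8.11 in wild-type muscle. The groups overlapped throughout, and the log2 fold change of 0.03 ± 0.06 (SE) was the only positive one among the 14 probe sets. The other 2 probe sets gave -0.08 ± 0.07 and -0.02 ± 0.09, and the mean over the 3 was -0.02. H2-Eb1, the β chain of the I-E molecule, had 8.13, 8.34 and 8.46 in transgenic and 8.28, 8.32 and 8.61 in wild-type muscle. The log2 fold change was -0.08 ± 0.08 (SE), smaller than the SD within either genotype (0.141 and 0.135).

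Ctss encodes cathepsin S, the lysosomal protease that trims the invariant chain. It had 6.93, 7.14 and 7.34 in transgenic and 6.90, 7.19 and 7.38 in wild-type muscle, a log2 fold change of -0.05 ± 0.08 (SE). Both lowest values, 6.93 and 6.90, came from the smaller chip lot, 1 in each genotype.

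For class I, B2m encodes β2-microglobulin, the light chain of the class I molecule. Its brightest probe set had 10.10, 10.49 and 10.60 in transgenic and 10.01, 10.52 and 10.84 in wild-type muscle. The groups overlapped, with a log2 fold change of -0.07 ± 0.12 (SE), and the second probe set gave -0.04 ± 0.16. Tap1 encodes a subunit of the transporter that brings peptides into the endoplasmic reticulum. Its brightest probe set had 6.11, 6.24 and 6.47 in transgenic and 6.17, 6.28 and 6.52 in wild-type muscle, a log2 fold change of -0.05 ± 0.07 (SE). Both highest values came from the smaller chip lot. The brightest Tap1 probe set lay below 6.66, the median level of all probe sets, as did the other 3, the second H2-Aa probe set and the third H2-Ab1 probe set, while 9 of the 15 lay at or above it.

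Across the 14 probe sets of the 7 genes, log2 fold changes ran from -0.08 to 0.03 with a median of -0.05, against -0.0024 over all probe sets, 1 positive and 13 negative. None passed limma's test, with a smallest unadjusted p of 0.156 and an adjusted p of 0.999 for each, and 0 of the 14 had an unadjusted p under 0.05, against 4.63% of all probe sets (2.2% higher and 2.43% lower). All 14 overlapped between genotypes. The 95% intervals together covered -0.39 to 0.31 on the log2 scale, folds of 0.765 to 1.24.

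**Figure D2:**
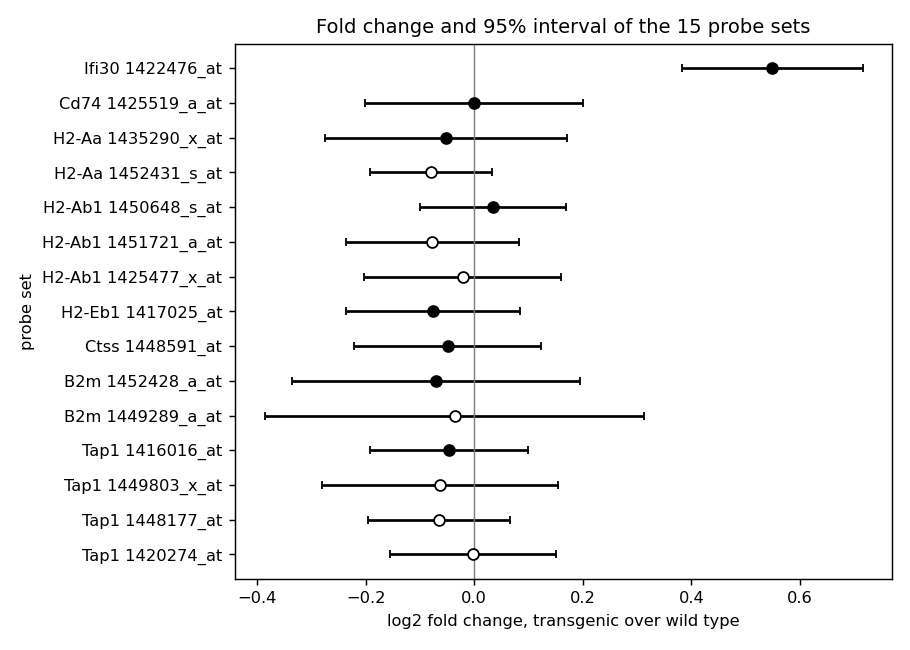
Log2 fold change (transgenic over wild type) with its 95% interval for each of the 15 probe sets. Ifi30 is at 0.55, and the intervals of the other 14 all include 0.

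Within hybridization days, 9 of the 14 probe sets other than Ifi30 had a positive log2 fold change on day 1 and 12 a negative one on day 2. The 9 that were positive on day 1 and negative on day 2 were those of Cd74, H2-Aa, H2-Ab1, H2-Eb1 and B2m, grouped here after their values were seen. Over all probe sets 23.1% had that pair of signs. The 5 probe sets of Ctss and Tap1 were negative on day 1, and of these Tap1 1449803_x_at ran the opposite way, with -0.25 on day 1 and 0.13 on day 2, as did Tap1 1420274_at, with -0.06 and 0.06. Cd74 gave log2 fold changes of 0.19 on day 1 and -0.19 on day 2, and the brightest B2m probe set 0.20 and -0.34. The test of the difference between the days gave an unadjusted p of 0.0432 for Cd74 and 0.0114 for that B2m probe set, but an adjusted p of 0.999 for both in limma. These were the 2 of the 14 probe sets with an unadjusted p under 0.05, against 3.04% of all probe sets. Without the smaller chip lot, which was hybridized on day 1 (a check chosen after seeing the data), 7 of the 9 remained positive on that day, and the brightest B2m probe set was at 0.16. Ifi30 was higher in transgenic muscle on both days, by 0.62 and 0.48, and the test of its day difference gave an unadjusted p of 0.367. Its genotypes did not overlap over all arrays, so its sign on each day was settled beforehand. What the days differ in was not tested.

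**Figure D3:**
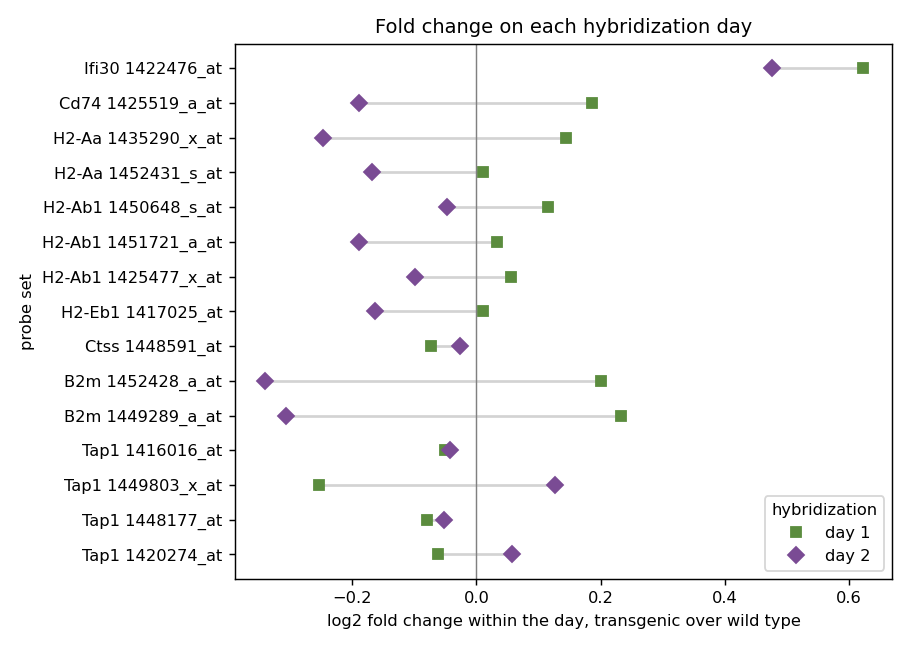
Log2 fold change (transgenic over wild type) of the 15 probe sets within each hybridization day, squares for day 1 and diamonds for day 2, 3 arrays of each genotype per day. Ifi30 is positive on both days, and the 9 class II and B2m probe sets are positive on day 1 and negative on day 2.

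Lists of genes around the pathway, chosen with earlier results of these data known, held no gene past the threshold. Of 15 measured genes of class I peptide loading 1 was positive and 14 were negative (median log2 fold change -0.07), against 49.4% positive and a median of -0.0013 over all 12393 named genes. Mr1, a class I-like molecule that presents vitamin metabolites, had the smallest p and was at -0.17 ± 0.07 (SE), a dimmer probe set at -0.05 ± 0.07. H2-M3 was at -0.12 ± 0.06 and Cd1d1, which presents lipids, at -0.12 ± 0.08, a dimmer probe set at -0.20 ± 0.07. Of the 8 genes of the immunoproteasome and activator list, which also holds constitutive subunits, 4 were positive (median 0.01). Psmb6, a constitutive catalytic subunit, was at 0.12 ± 0.06. Psmb5, also constitutive, was at 0.06 ± 0.05 and Psme3 at -0.04 ± 0.05, where a dimmer Psme3 probe set gave 0.24 ± 0.06. The immunoproteasome subunits Psmb8, Psmb9 and Psmb10 were at -0.06, -0.02 and -0.03. Of 15 class II loading and transcription factor genes 2 were positive (median -0.02). Rfx5, an X box binding protein, was at 0.10 ± 0.06, Creb1 at -0.08 ± 0.06 and Ciita, the class II transactivator, at -0.10 ± 0.08, a dimmer Ciita probe set having the other sign (0.03 ± 0.11).

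Ifi30 shares its compartment and its chemistry with 2 further lists. Of 32 lysosomal proteases and hydrolases 22 were positive (median 0.05). Ctsd, the aspartic protease cathepsin D, was at 0.17 ± 0.05 (limma adjusted p = 0.592), Tfeb, a transcription factor of lysosomal genes, at -0.16 ± 0.06, and Cst3, an inhibitor of cathepsins, at -0.15 ± 0.06. Of 20 thiol reductase and disulfide exchange genes 15 were positive (median 0.04). Glrx, glutaredoxin, was at 0.20 ± 0.08 (a dimmer probe set at 0.27 ± 0.09). Txn1, thioredoxin, was at 0.15 ± 0.06 (a dimmer probe set at 0.05 ± 0.06) and Selenot at -0.11 ± 0.05. Of the 20, 3 were higher and 2 lower with an unadjusted limma p under 0.05, against 2.63% and 2.28% of all named genes. All of these had adjusted p-values of 0.592 or more.

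Ifi30 is known as an interferon-γ-inducible gene. Of 33 measured interferon-induced genes 12 were positive and 21 negative (median -0.02). Gbp2, a guanylate-binding protein, was at -0.15 ± 0.06 (a dimmer probe set at -0.05 ± 0.07), Igtp, an interferon-inducible GTPase, at -0.10 ± 0.05 and Ifitm2 at 0.19 ± 0.09 (SE). Of the 10 interferon receptor and kinase genes 5 were positive (median 0.01). The kinase Tyk2 was at 0.14 ± 0.07 and Stat3 at -0.12 ± 0.07, its dimmer probe sets at -0.02 and -0.0055, and Jak1 at -0.11 ± 0.09, with a dimmer Jak1 probe set at -0.31 ± 0.13. No gene of either list passed the limma test.

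**Figure D4:**
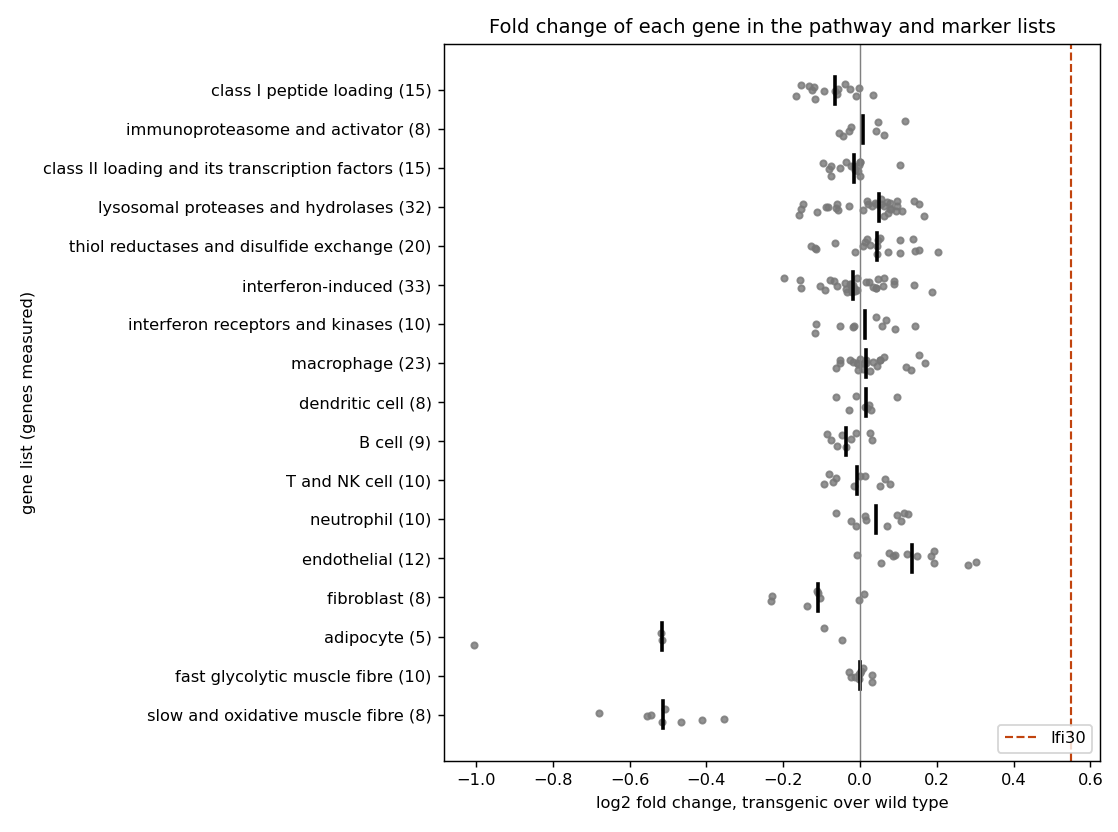
Log2 fold change (transgenic over wild type) of each measured gene in the pathway and marker lists, 1 point per gene, with black bars for list medians and a dashed line at Ifi30 (0.55). No gene of these lists passed the adjusted threshold.

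Markers of immune cells were compared the same way. Of 23 macrophage markers 14 were positive (median 0.02), and their summed level ran from 3279 to 3826 in transgenic and from 3040 to 3912 in wild-type muscle (linear intensity). Csf1r, the receptor of macrophage growth factor, was at 0.06 ± 0.05 and Lyz1, a lysozyme, at 0.15 ± 0.16, its dimmer probe sets at 0.05 and -0.03. Of 8 dendritic cell markers 5 were positive, of 9 B cell markers 2, of 10 T and NK cell markers 4 and of 10 neutrophil markers 7. Their brightest genes Flt3, Ighm, Cd3e and Csf3r were at 0.02, 0.03, -0.00066 and 0.07, and the next brightest, Cd209a, Blk, Cd4 and Ngp, at -0.0099, -0.05, 0.01 and -0.01. The processed intensities hold no 0 and no detection calls, so no defining marker could be called absent.

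Of 12 endothelial markers 11 were positive (median 0.14), and 6 had an unadjusted p under 0.05 in that direction, against 2.63% of all named genes, though none passed the adjusted threshold. Their summed level ran from 3082 to 3290 in transgenic and from 2577 to 3245 in wild-type muscle. The ranges overlapped only through wild-type replicate 10, at 3245. The other wild-type arrays ran from 2577 to 3046, below the lowest transgenic array. Esam, an endothelial adhesion molecule, was at 0.19 ± 0.06, and Egfl7, the brightest, at -0.0066 ± 0.15, its 3 dimmer probe sets between 0.02 and 0.03. Of 8 fibroblast markers 1 was positive (median -0.11), with Dcn at -0.0016 and Col3a1 at -0.23. Of 5 adipocyte markers none was positive (median -0.52), and 3 had an unadjusted p under 0.05, against 2.28% of all named genes in that direction, with Adipoq at -1.01 ± 0.37 and Fabp4 at -0.05. Of 8 markers of slow and oxidative fibres none was positive (median -0.51, 1 with an unadjusted p under 0.05). The brightest, Myh2 and Atp2a2, were at -0.35 and -0.52, other Atp2a2 probe sets reaching -0.04. The part of these shifts in the Ifi30 difference was not tested.

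Within genotypes, the members were compared by their deviations from the genotype mean over the 12 arrays, which do not use the genotype contrast. Of the 28 pairs 22 were positive, with a median Pearson r of 0.17. Leaving out the smaller chip lot moved 10 of the 28 by at least 0.2. Ctss with Tap1 was at r = -0.65 over all arrays and 0.35 without that lot, H2-Aa with Tap1 at -0.64 and -0.02, and H2-Aa with Ctss at 0.53 and -0.22. H2-Aa and B2m gave r = 0.85 (permutation p = 0.00062, adjusted 0.0174 over 28 pairs) and rho = 0.66 (permutation p = 0.0188, adjusted 0.131). Without transgenic replicate 5 and wild-type replicate 7, the arrays farthest from the median of H2-Aa, r was 0.55. Within the larger chip lot it was 0.70. Within days it was 0.91 on day 1 and 0.92 on day 2. It was the only pair whose r passed after adjustment.

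Cd74 and H2-Aa gave r = 0.73 (adjusted permutation p = 0.166) and rho = 0.86 (adjusted permutation p = 0.0137), the only rho to pass. Without transgenic replicate 3 and wild-type replicate 12 this r was 0.69, and within days it was 0.82 and 0.75. Cd74 with H2-Ab1 gave r = 0.61, and H2-Ab1 with H2-Eb1 r = 0.71 (adjusted permutation p = 0.166). Without the 2 arrays farthest from the median of the first gene named, Cd74 or H2-Ab1, these were 0.76 and 0.60. Ifi30 gave r between -0.12 and 0.48 with the 7 others, and none of these 7 passed. Within days, with 6 arrays each, these ran from -0.13 to 0.60 on day 1 and from -0.90 (B2m) to 0.71 (Tap1) on day 2, where H2-Aa was at -0.78 and Cd74 at -0.70. Without the smaller chip lot they ran from 0.0054 to 0.57. The 2 B2m probe sets gave r = 0.94 with each other, those of H2-Aa 0.36, and those of H2-Ab1 0.30 to 0.53. Probe sets whose name ends in _x_at can match further transcripts. The H2-Aa probe set in both pairs that passed, with B2m by r and with Cd74 by rho, was of this kind (1435290_x_at).

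**Figure D5:**
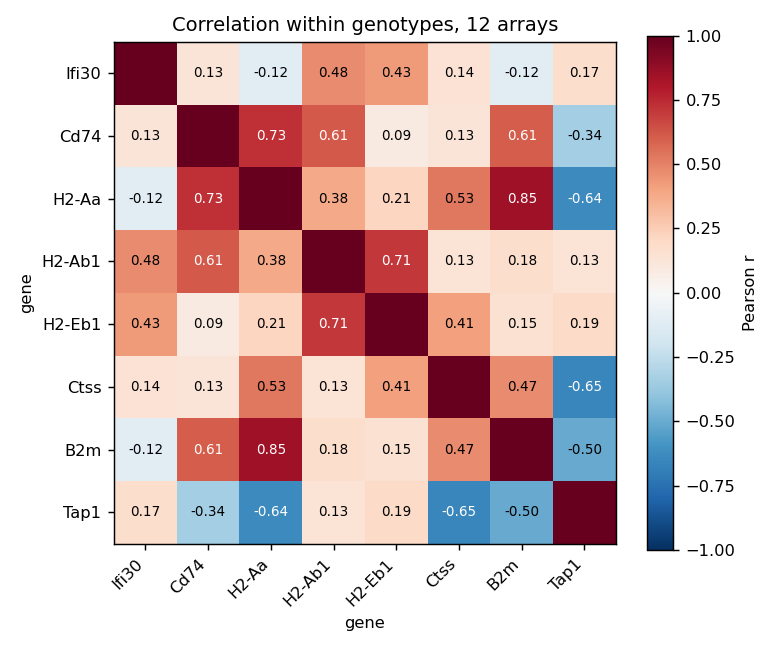
Pearson r between the 8 genes over 12 arrays, after taking out each genotype's mean, in a square of genes by genes. H2-Aa with B2m is at 0.85 and Ifi30 with the others lies between -0.12 and 0.48.

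The members were also set against the mean log2 level of the macrophage and endothelial lists (16 relations, chosen after seeing the lists). Ctss with the macrophage mean gave r = 0.76 (permutation p = 0.00452, adjusted 0.0723) and rho = 0.69 (adjusted permutation p = 0.176). That r was 0.54 without the smaller chip lot, whose 2 arrays were also the farthest out in the macrophage mean. Within days it was 0.94 and 0.58. Ifi30 with the macrophage mean gave r = 0.44 (adjusted permutation p = 0.315) and rho = 0.23 (adjusted permutation p = 0.538), with r = 0.68 without the smaller chip lot and 0.53 and 0.44 within days. Ifi30 with the endothelial mean gave r = 0.18 (adjusted permutation p = 0.589) and rho = 0.27 (adjusted permutation p = 0.538). That r was -0.23 without transgenic replicate 3 and wild-type replicate 10, the arrays farthest out in the endothelial mean. It was 0.30 and -0.10 within days. None of the 16 passed. By likeness of the same deviations, the 5 genes nearest Ifi30 of 7390 ranked were Cfb (r = 0.87), Itga2b (0.82), Eng (0.80), Tm7sf2 (0.79) and Bag5 (0.79). Those nearest the mean of Cd74, H2-Aa, H2-Ab1 and H2-Eb1 were Def8 (0.93), Ugdh (0.93), Cpq (0.91), Snx6 (0.89) and Sparc (0.88). None of these 10 genes passed the limma test between genotypes. Their r values are the highest picked from all ranked genes over 12 arrays, and no p-value was computed for them. Picking the highest of so many raises r by itself, so no relation to Ifi30 or the class II genes is read from them.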

How the data were processed

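The authors deposited probe set intensity values on a linear scale, 1 column per array, made with RMA per the submitters' processing notes. Its version, probe definition file and filters are not given in the sources used here. The settings text deposited with each array (classed as other) gave hybridization day, run and chip lot. Log2 was taken without a pseudocount, 64 control probe sets were set aside and 22626 tested with limma 3.58.1 in R 4.3.3 (two-sided, Benjamini-Hochberg over all). Tables were made with Python 3.11.15, pandas 2.3.3 and scipy 1.17.1. Precision is limited by the number of arrays, and p-values measure the spread between 12 mice. The annotation gave 1 symbol for 20380 of them, several for 691 and listed no entry for 1555. 20351 matched RefSeq GRCm38.p6. The brightest probe set stands for a gene.

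The members and lists were chosen with earlier results of these data known. Named are all members, of each pathway list the 3 smallest p, of each marker list the 2 brightest, the 3 nearest genes on each side of Ifi30 and the 5 most alike. Psmb8, Psmb9 and Psmb10 are named outside this rule. Correlations used 100000 permutations within genotypes. Alternatives were a day or run block, each day alone, median centring, further quantile normalization, log2(value + 32), an intensity trend with robust estimation, only probe sets at or above the median level, the mean over a gene's probe sets, leaving out the smaller lot and leaving out each array. Day 1 without the smaller lot was added after seeing the data. The limma script was tested on simulated data.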

Additional observations from a re-analysis of the deposited data

Results flagged for a closer look

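Of 30 groups of 6 arrays, 5 had 1 array far from the other 5, where chance alone picks out about 1 group in 20. For H2-Aa (1435290_x_at), wild-type replicate 7 was the lowest at 8.19, and in the second H2-Aa probe set wild-type replicate 12 was the highest at 6.32. For H2-Ab1 (1450648_s_at), wild-type replicate 9 was the highest at 8.11. For Tap1, transgenic replicate 1 was the highest at 6.47 (1416016_at) and transgenic replicate 3 the lowest at 5.30 (1448177_at). Values are log2 intensities.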

How the results depend on the processing

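Ifi30 kept its direction under all 22 alternatives and its side of the threshold under 18, with log2 fold changes of 0.47 to 0.62. Because its genotypes did not overlap, settings that only left out arrays could not turn that direction. Day 1 alone gave 0.62 (limma adjusted p = 0.488) and day 2 alone 0.48 (0.597), each with 3 arrays of each genotype. Leaving out 1 array gave 0.50 to 0.58 with adjusted p-values of 0.0126 to 0.0511, and without transgenic replicate 2 (0.54) or wild-type replicate 11 (0.54) it lost the call. The other 14 probe sets passed under no alternative (302 run, smallest adjusted p 0.831), 261 kept the direction and 41, over 11 probe sets, turned it. Day 1 alone turned Cd74 (0.19), H2-Aa (0.14 and 0.0106), H2-Ab1 (0.0335 and 0.0554), H2-Eb1 (0.0105) and B2m (0.20 and 0.23), and day 2 alone turned H2-Ab1 (-0.0476) and Tap1 (0.13 and 0.0573). The run block turned H2-Ab1 1425477_x_at to 0.0185 and Tap1 1420274_at to 0.0329, leaving out the smaller lot these to 0.0018 and 0.0149. Median centring and further quantile normalization turned Cd74 (0.0015 and 0.00066) and Tap1 (0.00032 and 0.00029), and log2(value + 32) Tap1 (0.00040). Leaving out 1 array, the turned probe sets ranged from -0.0479 to 0.0615 for Cd74, -0.0779 to 0.0183 for H2-Ab1 1425477_x_at, -0.17 to 0.0586 for B2m 1449289_a_at, -0.13 to 0.0017 for Tap1 1449803_x_at and -0.0576 to 0.0318 for Tap1 1420274_at. Among all probe sets 10 were higher and 6 lower: 4 and 2 with the run block, 1 and 0 on day 1, 1 and 1 on day 2, 11 lower with the day block and 10 lower with log2(value + 32). Leaving out 1 array gave 4 to 12 higher and 1 to 6 lower. The cause was not tested. No paired analysis was run, because the genotypes share no replicate numbers and the sample labels used here give no litter. Any pairing of littermates is therefore not taken into account.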
